A study of Mus musculus with 6 samples.

Results

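The genes described here encode the machinery of macroautophagy, the pathway by which a cell wraps part of its cytoplasm in a new double membrane and delivers it to the lysosome. They were chosen by symbol and not by a limit on their values, although earlier results of these data were known. The set takes the Atg genes, the LC3 and GABARAP genes (Map1lc3, Gabarap), the Ulk kinases, the Wipi and Tecpr genes and 17 further genes named singly, most of them of lipid kinase complexes and cargo receptors. The rule found 48 of the 12803 genes in the deposited table, and all 48 passed the filter on low values.

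The libraries were made from messenger RNA of cultured mouse kidney podocyte cells. Of the 6 libraries, 3 (KO) came from a line derived from podocytes with the genotype Myosin 1e KO. The other 3 (WT) came from the line labelled Murine Podocyte Cell (Mundel), of genotype WT. The labels name no treatment, age or time of culture, and a heterozygous genotype named in the design text was not analysed here. Each genotype is represented by 1 cell line, so the genotype and other differences between the lines cannot be told apart. The labels do not say whether the libraries of a group came from separate cultures, so p-values measure only the spread between these samples. In bulk RNA, fewer cells that use a gene and less RNA per cell cannot be told apart.

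Autophagy begins when the ULK kinase complex phosphorylates a lipid kinase complex built on Pik3c3 and Becn1, which marks a membrane with phosphatidylinositol 3-phosphate. WIPI proteins read that mark, ATG9 vesicles and the lipid channel ATG2 supply membrane, and a pair of ubiquitin-like conjugation systems attaches the ATG8 proteins (LC3 and GABARAP) to it. Cargo receptors such as p62 bind both the ATG8 proteins and the material to be degraded. Podocytes are long-lived cells that divide little, and are known for a high basal rate of autophagy.

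The libraries held 35447096 to 42106461 reads over the listed genes, and levels are given as CPM (counts-per-million) with the authors' prior count removed. Myo1e, the targeted gene, stood at 16.3 to 18.9 CPM in KO against 168 to 184 CPM in WT, as labelled. Of 12 podocyte markers, 7 were listed, with a summed level of 1641 to 1821 CPM in KO and 1912 to 2103 CPM in WT libraries. The transcription factor Wt1, a defining marker, was at 0.125 ± 0.101 CPM in KO and 4.40 ± 2.00 CPM in WT (SD, n = 3). The listed podocyte markers went both ways, with 2 higher in KO (Podxl and Cd2ap) and 3 lower (Wt1, Synpo and Magi2). All 8 markers of simple epithelium were higher in KO, at 7640 to 8364 CPM in sum against 4.43 to 7.75 CPM in WT, where Cldn7 was at 0 in all 3 libraries. Markers of proximal tubule (3 of 5 listed) summed to 14.1 to 24.1 CPM in KO and 620 to 1247 CPM in WT, and those of mesangium, pericyte and fibroblast (3 of 7 listed) to 324 to 648 and 1390 to 1464 CPM. Of the endothelial markers 0 of 5 were listed, and of the leukocyte markers 1 of 5, at 2.04 to 2.57 CPM in KO and 1.94 to 3.44 CPM in WT. The part of these other differences between the lines in the results below was not tested.

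The share of autophagy genes that differed between the lines was near that of all genes, with more of them on the higher side. Of the 48 genes, 25 were higher in KO and 9 were lower (limma, Benjamini-Hochberg adjusted p under 0.05 over all 12616 genes tested). That makes 34 called, or 70.8%, near the background of 68.1% of all genes tested, of which 34.3% were called higher and 33.8% lower. The higher direction took 52.1% of the autophagy genes and the lower direction 18.8%. The median log2 fold change of KO minus WT was 0.28 over the autophagy genes and 0.01 over all genes tested.

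Differences of at least 2-fold were few. A change of at least 2-fold was called in 2 of the 48 genes, Atg9b and Rb1cc1, against 27.9% of all genes tested. Among the 9471 tested genes with at least 5 CPM in all 6 libraries, a limit chosen after the data were seen, that share was 14.3%. The median absolute log2 fold change was 0.41 over the autophagy genes, 0.51 over all genes tested and 0.39 over those 9471 genes, so the typical size was not below that of genes with such levels. Every autophagy gene was expressed in every library, between 6.42 CPM (Atg10) and 1284 CPM (Sqstm1). The KO and WT libraries did not overlap in 33 of the 48 genes, 24 with KO above and 9 with KO below (background 73.5% not overlapping, 37.2% above and 36.4% below). Libraries of a group varied little, with a median coefficient of variation of 6.73% in KO and 7.58% in WT, and at most 25.8%.

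**Figure D1:**
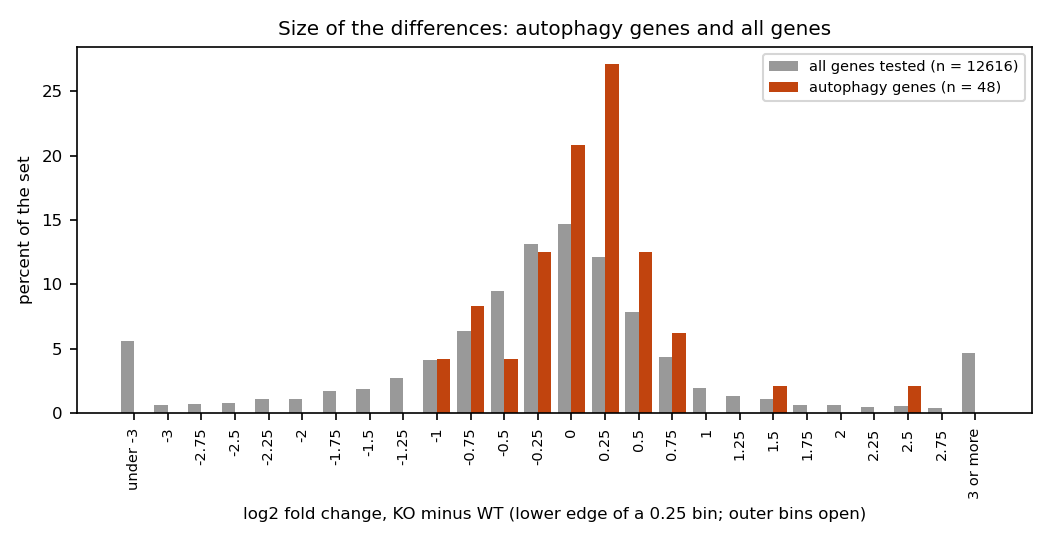
Percent of genes in each 0.25-wide bin of log2 fold change (KO minus WT), for all 12616 genes tested (grey) and the 48 autophagy genes (orange); the outer bins are open. The autophagy genes lie between -0.97 and 0.86 apart from Rb1cc1 at 1.60 and Atg9b at 2.73, while 5.59% of all genes lie below -3 and 4.64% at 3 or more.

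The median difference varied between chromosomes, and this touched many of the smaller values. Over all genes tested, the median log2 fold change ran from -0.40 on chromosome 19 (444 genes) to 0.42 on chromosome 11 (1028 genes), where 59.4% of genes were called higher. Chromosome 11 carries 7 of the autophagy genes, more than any other chromosome, and 6 of them were called higher. The log2 fold change had the sign of the chromosome median in 34 of 48 genes. That count has no background here, as the share was not taken over all genes tested. Genes lean to the sign of their own chromosome's median by definition, and 34 of the 48 lay above 0 on any chromosome. The correlation of the log2 fold change with that median was r = 0.21 over the 48 genes, which share libraries and, in part, chromosomes.

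When each library was centred on the median of each chromosome, an alternative chosen after the data were seen, 19 autophagy genes were called higher and 9 lower, 28 in all, against 32.4%, 33.2% and 65.6% of the 12466 genes tested that way. Of the 25 genes called higher as deposited, 18 stayed so, and Atg16l1, Fundc1, Nbr1, Sqstm1, Ulk2, Ulk3 and Vmp1 did not pass. Of the 9 called lower, 8 stayed so and Pik3c3 did not pass. Atg2a was called higher and Gabarap lower only with this centring. The median over the 48 genes was then 0.15. Values named below as centred by chromosome are from this fit.

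**Figure D2:**
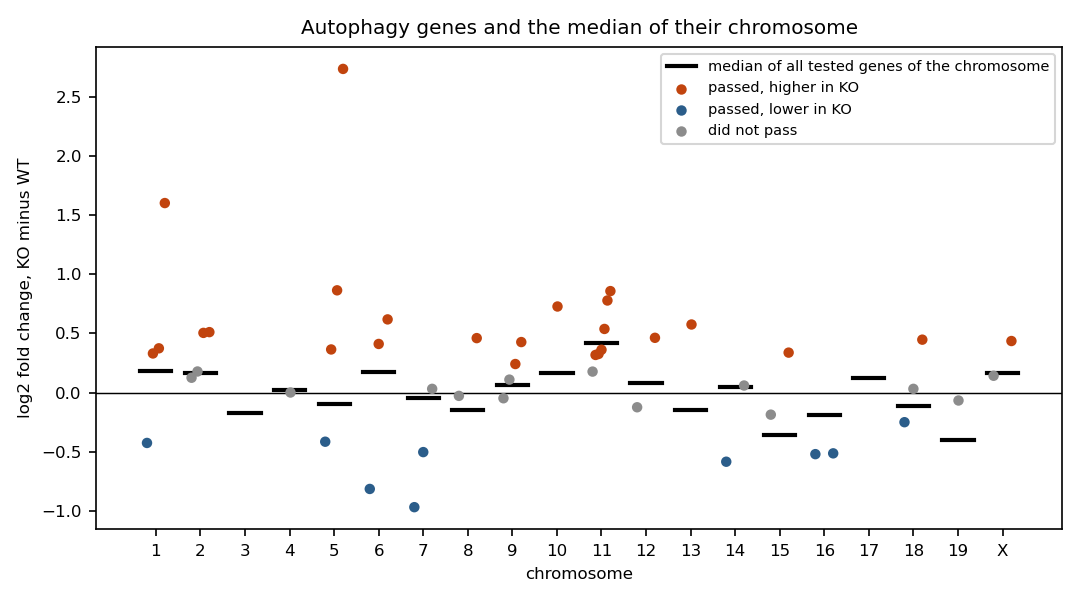
Log2 fold change (KO minus WT) of each of the 48 autophagy genes (points, coloured by whether limma called them) by chromosome, with the median of all tested genes of that chromosome as a black line. The 7 genes on chromosome 11 all lie above 0, where the chromosome median is 0.42; Atg9b on chromosome 5 and Rb1cc1 on chromosome 1 lie far from their lines.

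Atg9b, the gene with the largest difference of the 48, had the fewest CG dinucleotides before its start of the promoters read. Of the 48 genes, 40 had a promoter in the RefSeq table of GRCm38.p6, and the 250 bases before the most upstream start in that table were read. That start can lie inside the gene as annotated in GENCODE M21. The Wipi1 window lies wholly inside its gene, which on the minus strand starts at 109611967. The Gabarapl1 window runs past the annotated start at 129533160. The windows of the 5 genes with a log2 fold change of at least 0.8 in either direction and an entry in the table are shown 5′ to 3′ on the strand of the gene, with each CG dinucleotide in capitals.
Atg9b, chr5:24392144-24392393, minus strand: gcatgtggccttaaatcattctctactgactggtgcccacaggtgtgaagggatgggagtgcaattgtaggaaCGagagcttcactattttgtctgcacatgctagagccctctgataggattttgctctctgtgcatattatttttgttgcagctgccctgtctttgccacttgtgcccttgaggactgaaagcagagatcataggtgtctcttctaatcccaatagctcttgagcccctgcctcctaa
Tecpr1, chr5:144223616-144223865, minus strand: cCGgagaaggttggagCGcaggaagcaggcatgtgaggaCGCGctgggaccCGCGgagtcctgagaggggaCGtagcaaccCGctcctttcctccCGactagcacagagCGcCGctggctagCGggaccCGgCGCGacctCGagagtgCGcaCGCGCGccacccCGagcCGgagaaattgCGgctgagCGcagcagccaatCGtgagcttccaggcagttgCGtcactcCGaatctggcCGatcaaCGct
Wipi1, chr11:109611390-109611639, minus strand: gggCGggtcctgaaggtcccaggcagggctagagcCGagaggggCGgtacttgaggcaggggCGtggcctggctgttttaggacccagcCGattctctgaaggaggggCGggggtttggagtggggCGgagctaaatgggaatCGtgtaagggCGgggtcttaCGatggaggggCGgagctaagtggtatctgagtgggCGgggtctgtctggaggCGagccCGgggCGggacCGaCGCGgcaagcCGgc
Gabarapl1, chr6:129532942-129533191, plus strand: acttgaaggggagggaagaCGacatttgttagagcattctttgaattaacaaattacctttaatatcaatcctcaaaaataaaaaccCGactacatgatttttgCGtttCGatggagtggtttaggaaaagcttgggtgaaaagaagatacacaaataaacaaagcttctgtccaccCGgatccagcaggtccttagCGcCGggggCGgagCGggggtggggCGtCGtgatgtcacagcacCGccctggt
Uvrag, chr7:99141145-99141394, minus strand: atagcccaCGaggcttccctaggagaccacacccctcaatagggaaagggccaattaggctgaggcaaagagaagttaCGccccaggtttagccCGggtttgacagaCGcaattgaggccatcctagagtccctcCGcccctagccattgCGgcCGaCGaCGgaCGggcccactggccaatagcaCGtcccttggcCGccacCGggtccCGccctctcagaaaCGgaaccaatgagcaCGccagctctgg
The window of Atg9b held 1 CG, the fewest of the 40, and the others held 3 to 43 with a median over the 40 of 15. Over 9900 tested genes with a promoter the median was 16, and 2.52% of them held as few as Atg9b. Promoters rich in CG are typical of genes used in most tissues, and those poor in CG of genes used in few. Of the 249 tested genes with as few CG as Atg9b or fewer, 53.4% had an absolute log2 fold change of at least 1. That share was 25.4% of the 9651 with more. The limit was taken from Atg9b itself, and these sets were not matched for level. Whether CG content has a part in the difference of Atg9b was not tested.

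Atg9b encodes one of a pair of mammalian ATG9 proteins, membrane scramblases carried on vesicles that seed the growing membrane, and is the form with the narrower tissue range. The gene lies on chromosome 5 from 24384181 to 24392143 on the minus strand (GRCm38, GENCODE M21, protein-coding). The KO libraries gave 484, 472 and 412 CPM, whereas the WT libraries gave 63.9, 58.6 and 85.0 CPM. The lowest KO library was thus far above the highest WT library, and the means were 456 ± 38.5 and 69.2 ± 13.9 CPM, 6.59-fold apart (log2 fold change 2.73, SE 0.14, limma adjusted p = 6.4e-07).

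The paralog Atg9a, used in most tissues, went the other way. It was at 24.0, 24.4 and 19.9 CPM in KO and at 32.7, 30.6 and 28.2 CPM in WT, with every KO library below every WT library (log2 fold change -0.42, adjusted p = 0.0094). Per kilobase of exon, Atg9b was 29.4, 28.3 and 30.3 times as high as Atg9a in the KO libraries and 2.85, 2.80 and 4.41 times in the WT libraries. On the same strand, Gm29253, which was not among the listed genes, shares 1832 bases or 31.8% of the exon length of Atg9a. The level of Atg9a per kilobase, and with it this ratio, is therefore less certain. Exons of Atg9b overlap those of Nos3 on the opposite strand over 294 bases, or 7.45% of its exon length, and Nos3 was not among the listed genes. The strand setting of the authors' counting is not given in the sources used here.

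The WIPI proteins bind phosphatidylinositol 3-phosphate on the early membrane. Wipi1 was at 75.2, 66.3 and 68.3 CPM in KO and 42.0, 36.1 and 37.7 CPM in WT (log2 fold change 0.86, SE 0.09, adjusted p = 5e-05), and at 0.44 when centred by chromosome. Wipi2, which recruits the conjugation enzymes, rose to 181 ± 3.43 from 140 ± 2.28 CPM. Both genes kept their libraries apart, and the ratio of Wipi1 to Wipi2 per kilobase was 0.927 ± 0.0793 in KO and 0.659 ± 0.0590 in WT.

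Vmp1, a scramblase of the endoplasmic reticulum needed for the membrane to close off, was at 229, 214 and 247 CPM in KO and at 166, 145 and 165 CPM in WT. It rose as deposited (log2 fold change 0.54, adjusted p = 0.00073) but not when centred by chromosome (0.12, adjusted p = 0.28). The lipid channels Atg2a and Atg2b had overlapping groups, with means of 93.3 and 97.4 CPM for Atg2a and 56.1 and 61.4 CPM for Atg2b in KO and WT. Atg2a, on chromosome 19, had a log2 fold change of -0.06 as deposited and 0.35 when centred by chromosome. Of the 7 genes of membrane supply and WIPI effectors, 4 rose, 1 fell and 2 did not pass, a share called of 71.4% against 68.1% of all genes.

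In the initiation complex the scaffold Rb1cc1 differed most. Rb1cc1 encodes FIP200, the large protein that holds the kinase, ATG13 and ATG101 together, and the gene spans chr1:6206197-6276648 (plus strand). It was at 514, 532 and 477 CPM in KO and at 156, 161 and 186 CPM in WT. The groups lay far apart, with a 3.03-fold difference of means (508 ± 28.1 and 168 ± 16.2 CPM, log2 fold change 1.60, SE 0.09, adjusted p = 1.4e-06).

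A short antisense gene, 4732440D04Rik, overlaps 558 bases of Rb1cc1 exon, 3.80% of its exon length. Its own level was 5.74 ± 0.852 CPM in KO and 2.79 ± 0.182 CPM in WT (log2 fold change 1.02, adjusted p = 0.00078), far below that of Rb1cc1 in both lines. Together with Atg9b, this means that both genes of at least 2-fold have an exon overlap on the opposite strand. Of the 31 autophagy genes without such an overlap, 18 were called higher and 4 lower (71.0% called, against 68.1% of all genes), and all lay between -0.58 and 0.86 on the log2 scale.

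The kinase genes themselves split. Ulk1, the main initiating kinase, was at 105, 106 and 86.8 CPM in KO and at 148, 129 and 120 CPM in WT, so that it fell with no overlap (log2 fold change -0.41, SE 0.11, adjusted p = 0.0095). Its close relative Ulk2 was at 99.5, 86.5 and 78.5 CPM in KO and at 80.2, 70.4 and 61.6 CPM in WT. Those groups overlapped, and although Ulk2 passed as deposited (0.32, adjusted p = 0.044), it was at -0.10 when centred by chromosome and did not pass without KO replicate 1 or 2 or WT replicate 2 or 3 (adjusted p = 0.0083 to 0.16 over 16 alternatives). Per kilobase of exon, Ulk1 stood at 1.73 ± 0.0598 times Ulk2 in WT and 1.04 ± 0.0768 times in KO.

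The remaining members of this group moved little. Atg101, which stabilises ATG13, rose to 40.5 ± 3.46 from 32.0 ± 1.79 CPM (log2 fold change 0.34, adjusted p = 0.012, and 0.72 when centred by chromosome). Atg13, the adaptor of the kinase, missed the threshold at 62.7 ± 2.15 against 55.4 ± 2.64 CPM (adjusted p = 0.063), although its libraries did not overlap. Ulk3, a related kinase, was at 19.9 ± 0.125 against 16.8 ± 0.387 CPM (0.24, adjusted p = 0.041). Leaving out any 1 of the 6 libraries ended the call (adjusted p = 0.061 to 0.11), and it also missed the threshold with a replicate block (adjusted p = 0.076) or when centred by chromosome (adjusted p = 0.099). Ulk4, a relative without a known part in autophagy, was at 8.66 ± 1.30 and 8.92 ± 1.13 CPM (adjusted p = 0.81). Its exons overlap over 8.93% of their length with Ctnnb1 on the opposite strand. Ctnnb1 was far above it, at 986 ± 62.8 CPM in KO and 763 ± 37.4 CPM in WT, so the level of Ulk4 is less certain.

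**Figure D3:**
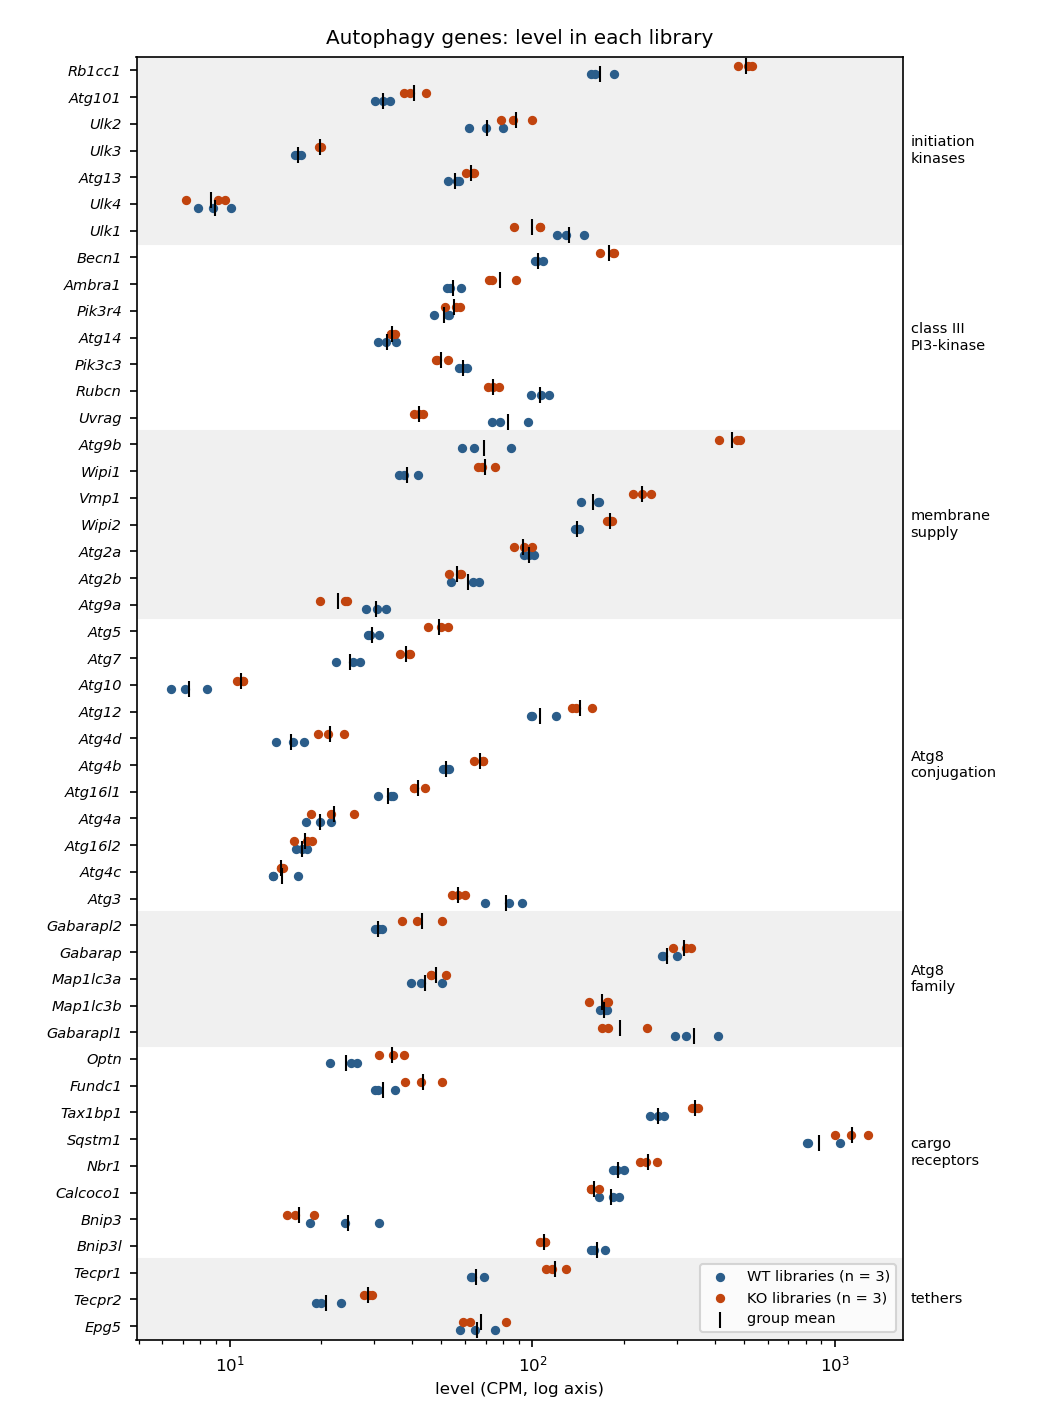
Level of each autophagy gene in each of the 3 KO (orange) and 3 WT (blue) libraries in CPM on a log axis, with group means as black ticks and genes grouped by role. The libraries of the 2 lines lie apart in 33 of 48 genes, most widely for Atg9b and Rb1cc1.

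The lipid kinase complexes share Pik3c3, Pik3r4 and Becn1, and differ in the fourth subunit. With Atg14 the complex starts new autophagosomes, and with Uvrag it acts on endosomes and late steps, where Rubcn restrains it. Becn1 was at 186, 167 and 185 CPM in KO and at 108, 103 and 102 CPM in WT, with a wide gap between the groups (log2 fold change 0.78, SE 0.07, adjusted p = 2.7e-05, and 0.36 when centred by chromosome). The gene Cntd1 on the opposite strand, which was not among the listed genes, overlaps 43.9% of the annotated exon length of Becn1.

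Uvrag was at 42.1, 43.4 and 40.7 CPM in KO and at 73.6, 78.1 and 96.7 CPM in WT. As deposited, it was the autophagy gene that fell furthest (log2 fold change -0.97, SE 0.11, adjusted p = 7.4e-05). Every KO library lay below every WT library. When centred by chromosome, Uvrag was at -0.92 and Gabarapl1 fell further, at -0.99. Leaving out WT replicate 1 (-1.05) or WT replicate 2 took Uvrag to 2-fold as deposited. An antisense transcript that was not among the listed genes overlaps 17.6% of its exon length. Rubcn fell with it, from 106 ± 7.28 to 74.3 ± 3.07 CPM (-0.51, adjusted p = 0.00049, and -0.31 when centred by chromosome).

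Atg14, by contrast, was at 34.4 ± 0.561 CPM in KO and 33.0 ± 2.21 CPM in WT, with overlapping groups (log2 fold change 0.06, 95% interval -0.13 to 0.26, adjusted p = 0.55). The ratio of Atg14 to Uvrag per kilobase was therefore 1.70, 1.69 and 1.75 in the KO libraries and 0.931, 0.829 and 0.765 in the WT libraries. That of Becn1 to Uvrag was 5.47 ± 0.471 in KO and 1.64 ± 0.266 in WT. These ratios were chosen after the values were seen. No ratio between genes given here was planned or has a test of its own.

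The catalytic subunit Pik3c3 was at 49.7 ± 2.63 against 59.0 ± 1.84 CPM and fell (log2 fold change -0.25, adjusted p = 0.018). Leaving out KO replicate 1 (adjusted p = 0.068) or WT replicate 2 (adjusted p = 0.083) ended the call, as did centring by chromosome (adjusted p = 0.20). Its partner Pik3r4 was at 55.0 ± 3.05 and 51.0 ± 3.35 CPM (adjusted p = 0.28). Ambra1, which links Becn1 to the initiation kinases and to ubiquitin ligases, rose to 77.9 ± 8.78 from 54.5 ± 3.25 CPM (0.51, adjusted p = 0.0017). Of these 7 genes 2 rose and 3 fell, a share called of 71.4% against 68.1% of all genes.

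Of the 11 genes of the conjugation systems and their proteases, 7 rose, 1 fell and 3 did not pass, a share called of 72.7% against 68.1% of all genes. ATG7 activates ATG12 and the ATG8 proteins, ATG10 and ATG3 pass them on, and the ATG12-ATG5-ATG16L1 complex places the ATG8 proteins on the membrane. Atg5 was at 49.8, 45.3 and 52.7 CPM in KO and at 31.0, 28.7 and 29.0 CPM in WT. As deposited, that was the largest change of the group (log2 fold change 0.73, SE 0.09, adjusted p = 0.00012). When centred by chromosome, Atg10 changed most, at 0.74, with Atg12 at 0.58 and Atg5 at 0.57. Atg7 rose to 38.4 ± 1.58 from 25.0 ± 2.33 CPM, and Atg10 to 10.9 ± 0.296 from 7.32 ± 1.02 CPM. Atg12 was at 139, 135 and 158 CPM in KO and at 98.6, 99.6 and 119 CPM in WT (0.45, adjusted p = 0.0041). In all 4 genes every KO library lay above every WT library.

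Atg16l1 was at 41.8 ± 2.05 against 33.2 ± 2.07 CPM and rose as deposited (0.33, adjusted p = 0.0088), but not when centred by chromosome (0.16, adjusted p = 0.13). Its relative Atg16l2 was at 17.7 ± 1.26 and 17.3 ± 0.751 CPM and did not pass (log2 fold change 0.03, 95% interval -0.20 to 0.27). Atg3, the enzyme that attaches ATG8 proteins to lipid, was the exception. It was at 56.5, 54.2 and 59.8 CPM in KO and at 69.5, 83.9 and 92.6 CPM in WT, all KO libraries below all WT libraries (-0.52, SE 0.11, adjusted p = 0.0031, and -0.32 when centred by chromosome). Per kilobase, the ratio of Atg5 to Atg3 was 1.16 ± 0.0346 in KO and 0.492 ± 0.0942 in WT. That difference follows from their opposite changes and is no separate result.

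The ATG4 proteases trim ATG8 proteins before use and release them from the membrane afterwards. Atg4b, the most active of them, rose to 67.3 ± 2.55 from 51.9 ± 1.30 CPM (log2 fold change 0.37, adjusted p = 0.0017, and 0.21 when centred by chromosome). Atg4d was at 21.2, 19.5 and 23.9 CPM in KO and at 16.2, 17.6 and 14.2 CPM in WT and rose (0.43, adjusted p = 0.014). Its exons overlap over 19.3% of their length with Kri1 on the opposite strand, which was at 34.9 ± 1.28 CPM in KO and 26.6 ± 1.24 CPM in WT. Atg4a and Atg4c had overlapping groups and did not pass (adjusted p = 0.39 and 0.99).

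The core E-box CACGTG is bound by TFEB, TFE3 and MITF, among other factors. It occurred on either strand in the windows of 4 of the 40 genes, or 10%. That share was 6.04% of 27025 promoters in the table and 8.45% of those of tested genes. For each of the 4 genes 1 match is shown, with up to 12 bases on each side and the motif in capitals. They are shown because 3 of the 4 genes belong to the conjugation systems, although the share of 10% was near the 8.45% of tested genes.
Atg3, chr16:45158723-45158752, plus strand: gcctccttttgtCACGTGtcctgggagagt
Atg5, chr10:44268313-44268338, plus strand: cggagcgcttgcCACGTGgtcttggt
Atg7, chr6:114670952-114670981, plus strand: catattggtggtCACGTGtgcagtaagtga
Bnip3, chr7:138909597-138909626, minus strand: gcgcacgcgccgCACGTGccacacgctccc
Of these genes, Atg5 and Atg7 rose while Atg3 and Bnip3 fell. Atg3 held 2 matches, of which 1 is shown. The Atg7 match lies inside the gene as annotated in GENCODE M21, which starts at 114643097, and so not before that start. The forkhead core GTAAACA, searched on both strands, was in 0 of the 40 windows, against 2.06% of those of tested genes and 3.06% of all promoters of the table. The E-box with GT directly before and AC directly after it was also in 0 of the 40, against 0.576% and 0.255%. Such matches describe letters in a window and not binding.

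The ATG8 family is the coat that the conjugation systems attach. Of its 5 genes 1 rose and 1 fell, both of the GABARAP branch, a share called of 40% against 68.1% of all genes. Gabarapl1 was at 177, 170 and 238 CPM in KO and at 296, 409 and 322 CPM in WT. Every KO library was below every WT library. Gabarapl1 fell to 57.0% of the WT level (log2 fold change -0.81, SE 0.16, adjusted p = 0.0019, and -0.99 when centred by chromosome). A noncoding transcript on the opposite strand that was not among the listed genes overlaps 28.3% of its exon length. Gabarapl2 rose to 43.0 ± 6.79 from 31.0 ± 0.921 CPM (0.46, adjusted p = 0.0078).

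The other 3 family members had overlapping groups. Gabarap was at 316 ± 22.2 and 279 ± 18.1 CPM (log2 fold change 0.18, adjusted p = 0.10), but was called lower when centred by chromosome (-0.24, adjusted p = 0.036). Map1lc3b, which encodes LC3B, the usual marker of autophagosomes, was at 178, 154 and 176 CPM in KO and 176, 168 and 173 CPM in WT (-0.03, 95% interval -0.21 to 0.16). Map1lc3a was at 48.1 ± 3.23 and 44.2 ± 5.30 CPM (0.13, 95% interval -0.11 to 0.37).

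Per kilobase of exon, the family summed to 342, 318 and 389 in the KO libraries and 389, 421 and 375 in the WT libraries, which overlap. Within that sum Gabarapl1 took 25.7%, 26.6% and 30.4% in KO and 37.8%, 48.2% and 42.7% in WT. Gabarap took 50.8%, 49.7% and 46.7% in KO and 41.8%, 34.7% and 38.7% in WT. Gabarap was thus the leading family member in all KO libraries, while in WT Gabarapl1 led in replicates 2 and 3 and Gabarap in replicate 1. The shares depend on the exon lengths of the annotation.

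**Figure D4:**
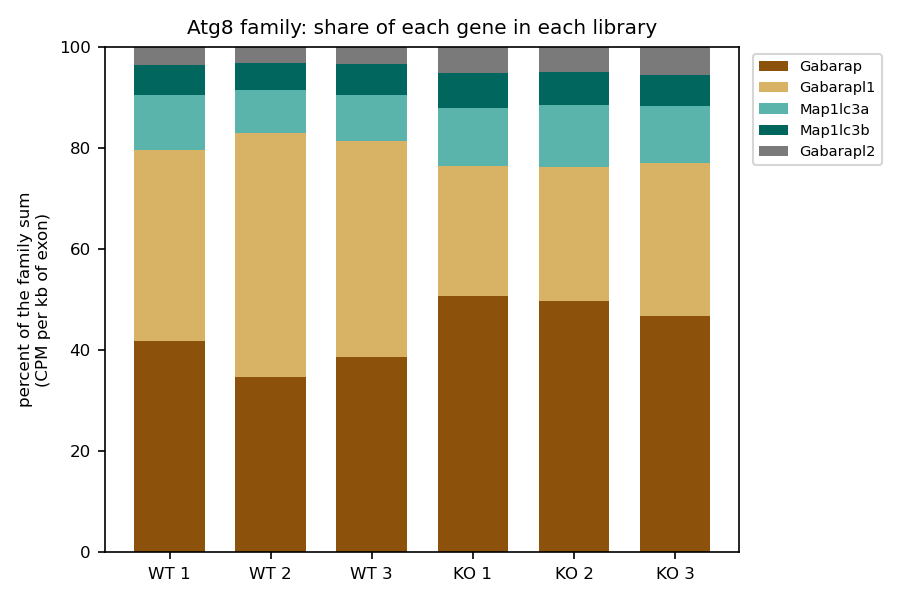
Share of each of the 5 Atg8 family genes in the family's summed level per kilobase of exon, in each WT and KO library (stacked to 100%). Gabarapl1 holds 37.8% to 48.2% in the WT libraries and 25.7% to 30.4% in the KO libraries.

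Of 8 cargo receptors, 5 rose, 2 fell and 1 did not pass (87.5% called, against 68.1% of all genes), and Nbr1, Sqstm1 and Fundc1 were no longer called when centred by chromosome. The 4 that recognise ubiquitin were called higher as deposited, of which Nbr1 and Sqstm1 were below 0 when centred by chromosome. Tax1bp1 was at 336, 345 and 353 CPM in KO and at 245, 260 and 273 CPM in WT, with no overlap (log2 fold change 0.41, adjusted p = 0.0014, and 0.24 when centred by chromosome). Nbr1 rose to 240 ± 16.2 from 192 ± 8.15 CPM as deposited (0.33, adjusted p = 0.0061), but was at -0.09 when centred by chromosome (adjusted p = 0.31). Optn, the receptor optineurin, rose to 34.5 ± 3.15 from 24.3 ± 2.54 CPM (0.50, adjusted p = 0.0041).

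Sqstm1 encodes p62, which is also degraded by the pathway it serves. It had the highest level of the 48 per kilobase of exon in both lines (339 in KO and 264 in WT). Its exons overlap over 17.3% of their length with Mrnip on the opposite strand. Mrnip was at 4.82 ± 0.931 CPM in KO and 4.85 ± 0.622 CPM in WT, far below Sqstm1. Sqstm1 was at 1284, 1128 and 998 CPM in KO and at 808, 812 and 1036 CPM in WT, so the groups overlapped. It passed narrowly as deposited (log2 fold change 0.36, SE 0.14, adjusted p = 0.048), was at -0.06 when centred by chromosome (adjusted p = 0.74) and did not pass in 7 of 16 alternatives (adjusted p = 0.017 to 0.16), among them leaving out KO replicate 1 or 2 or WT replicate 1 or 2.

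Of the receptors that sit in the mitochondrial outer membrane, 2 fell and 1 rose, so that all were called as deposited, against 68.1% of all genes. Bnip3l, also called NIX, was at 110, 106 and 110 CPM in KO and at 174, 156 and 160 CPM in WT, and fell (log2 fold change -0.58, SE 0.07, adjusted p = 0.00014). Its relative Bnip3, a hypoxia-induced gene, was at 16.4, 15.5 and 19.0 CPM in KO and at 31.0, 24.1 and 18.4 CPM in WT. Those groups overlapped, and Bnip3 passed as deposited (-0.50, adjusted p = 0.039) but not in 6 of 16 alternatives, with -0.32 without WT replicate 1 (adjusted p = 0.10). It also did not pass without KO replicate 1 or 2 or WT replicate 2. An antisense transcript that was not among the listed genes overlaps 22.3% of the exon length of Bnip3.

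Fundc1, the third of these receptors, went the other way, from 32.1 ± 2.65 CPM in WT to 43.6 ± 6.24 CPM in KO as deposited (0.44, adjusted p = 0.011). It did not pass when centred by chromosome (0.27, adjusted p = 0.067). Calcoco1, a receptor for endoplasmic reticulum and Golgi, was at 159 ± 5.55 against 181 ± 13.6 CPM and did not pass (-0.19, adjusted p = 0.068), with 0.19 when centred by chromosome. Per kilobase, Bnip3l stood at 1.54 ± 0.223 times Fundc1 in KO and 3.10 ± 0.0764 times in WT, which follows from their opposite changes.

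The last group joins the finished autophagosome to the lysosome. Tecpr1, a lysosomal tether that binds ATG12-ATG5, was at 129, 111 and 116 CPM in KO and at 69.1, 62.8 and 63.3 CPM in WT, a clear gap (log2 fold change 0.86, SE 0.08, adjusted p = 3.1e-05, and 0.97 when centred by chromosome). Tecpr2, whose human counterpart is mutated in a hereditary neuropathy, rose to 28.7 ± 0.929 from 20.9 ± 2.12 CPM. The fusion tether Epg5 was at 62.1, 81.9 and 58.8 CPM in KO and at 57.6, 64.4 and 75.4 CPM in WT, with full overlap (0.03, 95% interval -0.30 to 0.37).

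**Figure D5:**
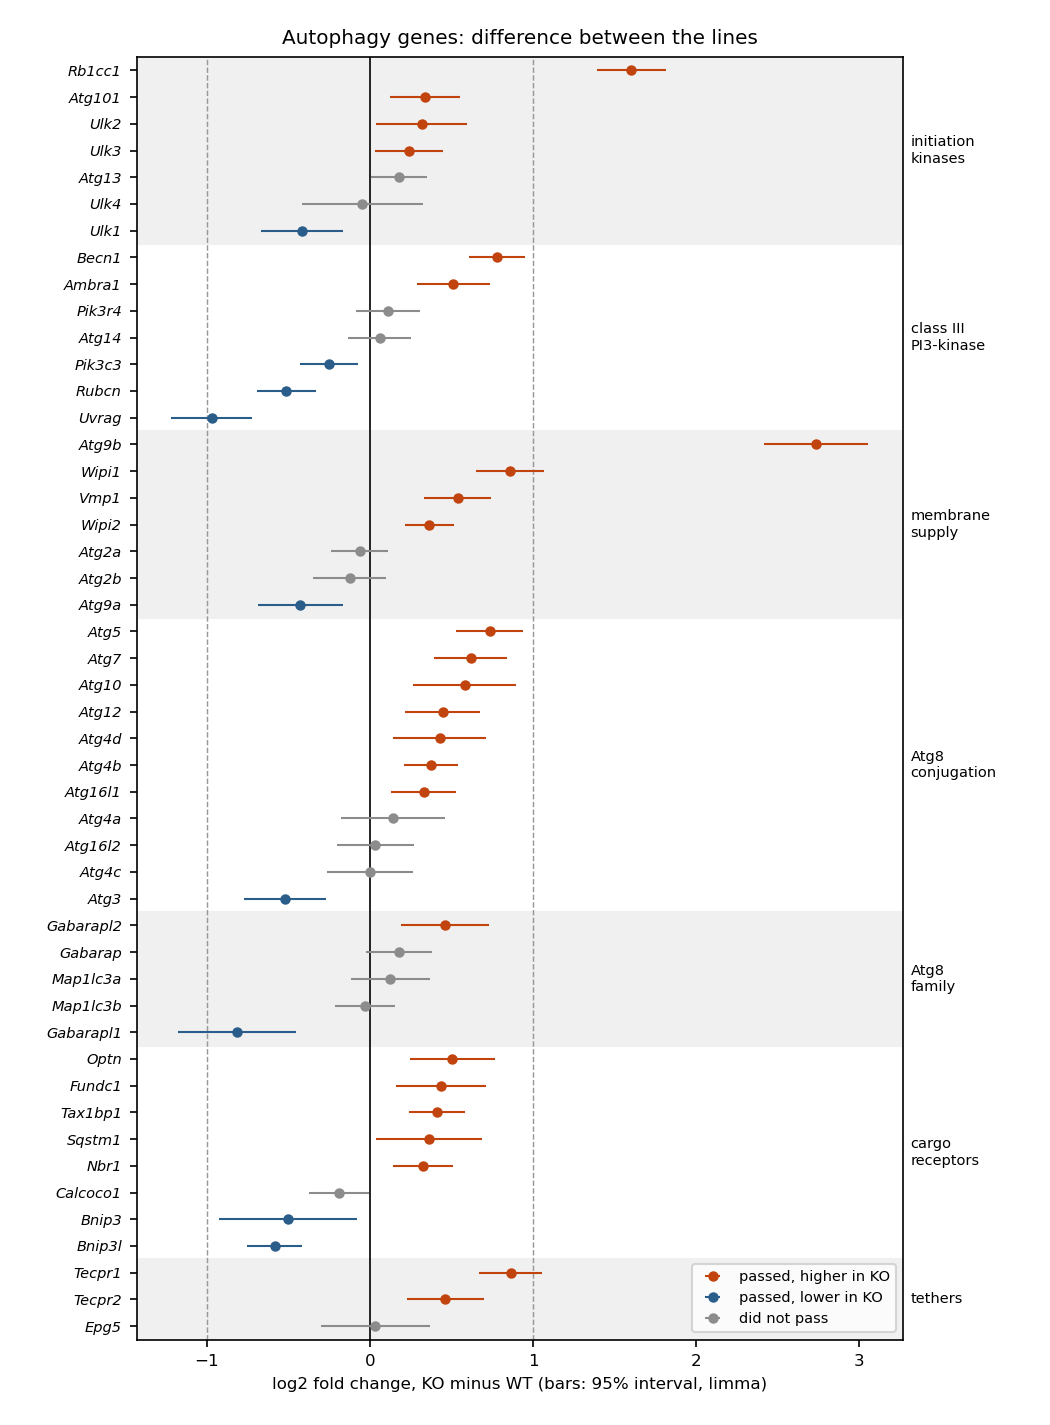
Log2 fold change (KO minus WT) of each autophagy gene with its 95% interval from limma, grouped by role; dashed lines mark 2-fold. Of the 48 genes, 25 passed on the higher side, 9 on the lower side and 14 did not pass; Sqstm1, Nbr1 and Ulk2, shown as higher, are below 0 when centred by chromosome.

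Per kilobase of exon, the order of the highest mean levels was as follows. In KO it ran Sqstm1 339, Gabarap 171, Atg9b 116, Gabarapl1 96.9 and Vmp1 59.6 CPM per kilobase. In WT it ran Sqstm1 264, Gabarapl1 170, Gabarap 151, Bnip3l 42.3 and Vmp1 41.1 CPM per kilobase. The order was not the same in every library. Gabarapl1 lay above Atg9b in KO replicate 3, Gabarap above Gabarapl1 in WT replicate 1, and Vmp1 above Bnip3l in WT replicate 3.

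Other genes of the pathway, outside the symbol rule, were taken from a list of 51, of which 50 were tested. In that list 18 were higher, 16 lower and 16 did not pass, with a median log2 fold change of 0.02. The shares of 36.0% higher and 32.0% lower were near those of all genes (34.3% and 33.8%). Among genes of the list whose higher group averaged 5 log2 CPM or more, 3 rose most. They were the cofactor Trp53inp2, which rose to 234 ± 22.3 from 131 ± 17.0 CPM, the fusion SNARE Ykt6, which rose to 198 ± 1.08 from 119 ± 5.20 CPM (0.74 on the log2 scale, adjusted p = 2.4e-05), and the lysosomal adaptor Plekhm1, which rose to 82.4 ± 7.56 from 51.1 ± 2.93 CPM.

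Within the same limit on level, the 3 that fell most were Sec62 and Rtn3, receptors for endoplasmic reticulum, and Wdfy3. Sec62 went to 218 ± 3.82 from 405 ± 12.1 CPM (-0.90, adjusted p = 8.7e-06) and Rtn3 to 329 ± 9.72 from 581 ± 37.2 CPM. Wdfy3, a large adaptor for protein aggregates, went to 222 ± 35.1 from 376 ± 32.8 CPM. All libraries of these 3 genes lay apart between the lines. Of the other receptors for endoplasmic reticulum in the list, chosen after their values were seen, Retreg1 rose to 114 ± 4.22 from 97.5 ± 6.05 CPM, Ccpg1 fell to 5.15 ± 0.321 from 6.76 ± 0.351 CPM, and Tex264 did not pass.

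The transcription factors named above with the E-box were looked at after their values were seen. Tfeb, the main regulator of lysosomal and autophagy genes, was at 13.3, 10.3 and 10.5 CPM in KO and at 29.1, 25.7 and 21.2 CPM in WT, and fell (log2 fold change -1.16, SE 0.15, adjusted p = 0.00021). Tfe3 fell to 66.5 ± 6.49 from 92.2 ± 3.51 CPM (adjusted p = 0.0016), while Mitf rose to 9.56 ± 0.374 from 6.52 ± 0.731 CPM (adjusted p = 0.0061). Tfeb fell further than any other gene of the list but lies below the limit on level. The nutrient-sensing kinase Mtor was at 92.9 ± 7.64 and 100.2 ± 3.97 CPM and did not pass (adjusted p = 0.26). The levels of messenger RNA given here do not measure the rate of autophagy, which depends on protein modification and turnover.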

How the data were processed

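Messenger RNA libraries of 3 KO and 3 WT samples were used. The authors deposited 1 table of log2 CPM, with 1 column per library. Trimmomatic 0.39, STAR 2.7.3a, featureCounts, Subread 1.6.4, edgeR and the build GRCm38 are named per the submitters' processing notes; the annotation, strand setting, filter and prior were not given in the sources used. All values above the shared lowest value of -5.26 were whole multiples of 1 step per library (100% of values of up to 10000 reads within 0.01 read). CPM without the prior followed from those steps. Library pairs within a group differed by more than sampling noise (chi-square per gene 22.2 to 58.5).

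The test was limma 3.58.1 (R 4.3.3; lmFit, and eBayes with an intensity trend) on the deposited log2 CPM, KO minus WT, without covariates, over the 12616 genes that exceeded 0 log2 CPM in 3 or more of the 6 libraries. The threshold was 0.05 on the p-value adjusted by the Benjamini-Hochberg method. The procedure was run on simulated data in which few genes changed, as many up as down and all by at least 2-fold. Far more genes differed here, most of them by less, so the simulation is no measure of the calls above. Exon lengths and overlaps are from GENCODE M21, in which all 48 symbols were found once. Near-identical copies were sought with blastn 2.17.0 (at least 95% identity over 200 bases). Alternatives covered the filter, the pseudocount (1 or 0.5 CPM), the scaling, the trend, robust fitting, voom on whole reads, a replicate block and leaving out each library. Every gene of the symbol rule could be named; of the other pathway genes, the 3 that rose and the 3 that fell most whose higher group averaged 5 log2 CPM or more, and any that did not pass. Tfeb, Tfe3, Mitf, Retreg1 and Ccpg1 were named outside this rule, after their values were seen. The members and lists were chosen with earlier results of these data known.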

Additional observations from a re-analysis of the deposited data

How the results depend on the processing

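Over 16 other settings and subsets of the libraries, the 48 autophagy genes gave 22 to 25 calls on the higher side, 7 to 10 on the lower side and 2 to 3 at 2-fold or more; 29 of the 34 called genes passed in all 16, and Bnip3, Pik3c3, Sqstm1, Ulk2 and Ulk3 did not pass in some. The other pathway genes gave 15 to 20 and 12 to 17 calls, and all genes 7573 to 8743. With the replicate number as a block, 23 autophagy genes were called higher, 8 lower and 2 at 2-fold, with 8395 calls over all genes and 18 higher and 14 lower in the list of other genes. The labels do not say what the numbers share, and deviations of same-numbered libraries correlated at 0.101, 0.0811 and -0.0951, so the numbers were not taken as pairs. Under the block Sqstm1, Ulk3 and Bnip3 did not pass (adjusted p = 0.089, 0.076 and 0.054). Atg13 passed without KO replicate 3 (adjusted p = 0.047) and Calcoco1 without WT replicate 3 (adjusted p = 0.030). The signs of 5 genes that had not passed turned without passing. Leaving out 1 library in turn gave -0.010 to 0.090 for Atg16l2, -0.045 to 0.092 for Atg4c, -0.11 to 0.14 for Epg5, -0.064 to 0.040 for Map1lc3b and -0.13 to 0.081 for Ulk4. Without WT replicate 3, Atg16l2 was at -7.0e-06. Atg4c was at -0.0056 with median scaling, -7.0e-05 with upper quartile scaling and -0.0031 with voom. Median scaling within each chromosome, chosen after the data were seen, turned Atg2a to 0.35, Calcoco1 to 0.19, Map1lc3b to 0.14, Atg4c to -0.015, Atg4a to -0.028, Map1lc3a to -0.039, Sqstm1 to -0.059, Nbr1 to -0.094, Ulk2 to -0.10 and Gabarap to -0.24. It called 17 and 15 of the other pathway genes and 8177 genes in all. The causes were not tested. Atg4a, Bnip3, Bnip3l, Gabarapl2, Map1lc3b and Uvrag share stretches with other annotated genes, so their counts are less certain. Of the 42 other autophagy genes, 24 were called higher and 6 lower (71.4% called, against 68.1% of all genes).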
